A study of Homo sapiens with 4 samples.

Results

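Neuropeptides and the proteins that sort and process them were followed in RNA-seq of BE(2)C cells, a human neuroblastoma line with amplified MYCN that was derived as a clone of SK-N-BE(2), and all results therefore come from 1 line. The genes were chosen by symbol, 10 of the 26364 genes listed: the peptide precursors NPY, GAL, VIP and CARTPT, the granins SCG2, SCG3, SCG5 and VGF, the convertase PCSK2, and PCSK1N. The Ctrl group (2 samples) was transfected with siRNA that targets no gene, and the MYCN KD group (2 samples) with siRNA directed at MYCN. Both groups carried the MYCN amplification and the same transfection, 80 nM siRNA with a Lipofectamine reagent for 6 h according to the labels, and RNA was taken on the next day. The methods of the study give a lower final siRNA concentration than the labels.

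Neuropeptides are made as longer precursors that enter the secretory pathway and are packed into dense-core vesicles, the same vesicles that store catecholamines in sympathetic cells. Granins are acidic proteins that help to form these vesicles and are themselves cut into peptides. Prohormone convertases cut the precursors at basic residues, carboxypeptidases trim the ends, and amidating enzymes finish many of the peptides. Sympathetic neurons and the neuroblastomas that arise from their lineage are known for NPY, VIP and galanin, and granins are used as markers of neuroendocrine tumours.

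The values are RPKM (reads scaled to gene length and to the mapped total), which correct for gene length, so that levels can be compared between genes. The totals behind the samples, recovered from the steps of the values, were 29055819 to 34142988 reads after the normalization of the study. MYCN fell from 1068 and 1073 RPKM (Ctrl) to 720.2 and 718.0 RPKM (MYCN KD), which on the log2 scale was -0.57 (standard error 0.0286, adjusted p = 0.00361 from limma), and an antisense gene, MYCNOS, overlaps it. All 8 sympathetic markers passed the filter on low values, and 5 of them were called higher in MYCN KD by limma. Of all tested genes, 25.3% were called higher. Among markers of other cells, 0 of 4 endothelial, 2 of 5 immune, 2 of 5 Schwann cell and 4 of 6 mesenchymal genes passed the filter on low values. Their summed RPKM lay in Ctrl and MYCN KD from 0.291 to 0.367 and 0.515 to 0.644 (endothelial), 5.00 to 6.03 and 11.0 to 13.2 (immune), 5.59 to 5.92 and 9.90 to 10.5 (Schwann cell), and 23.0 to 25.1 and 28.5 to 31.1 (mesenchymal). Of the tested ones 1 of 2 immune genes (CD68) and 2 of 2 Schwann cell genes were called higher in MYCN KD. So were 3 of 4 mesenchymal genes, beside the same 25.3% of all tested genes. None of these 20 marker genes was at 0 in all samples, and PTPRC, which defines leukocytes, reached at most 0.00464 RPKM. Their part in the results was not tested. In bulk RNA, a change in the number of cells that express a gene and a change in RNA per cell cannot be told apart.

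After the knockdown the peptide genes rose or did not pass the test, and none fell past it. Of the genes past the threshold, NPY and VIP had the largest log2 fold changes, followed by SCG2 and SCG3, while PCSK1N, VGF, SCG5 and GAL did not pass the threshold of 0.05 on the adjusted p. The tests used log2(RPKM + 1) with limma over 11411 genes whose RPKM averaged 1 or more. These included 8 of the 10 peptide genes. CARTPT and PCSK2 lay below this filter. Of the 8 genes, 4 were called higher and 0 lower, where 25.3% of all tested genes were called higher and 22.8% lower. The count of 0 lower was the same at an unadjusted p under 0.05 in limma and with voom on the recovered reads. Both MYCN KD values lay above both Ctrl values in 7 of the 8, against 40.4% of all tested genes, and both lay below in the eighth, GAL. The median log2 fold change of the 8 was 0.38, and that of all tested genes was 0.03. No test of the list as a whole was made, since its genes were chosen with results of these data known.

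**Figure D1:**
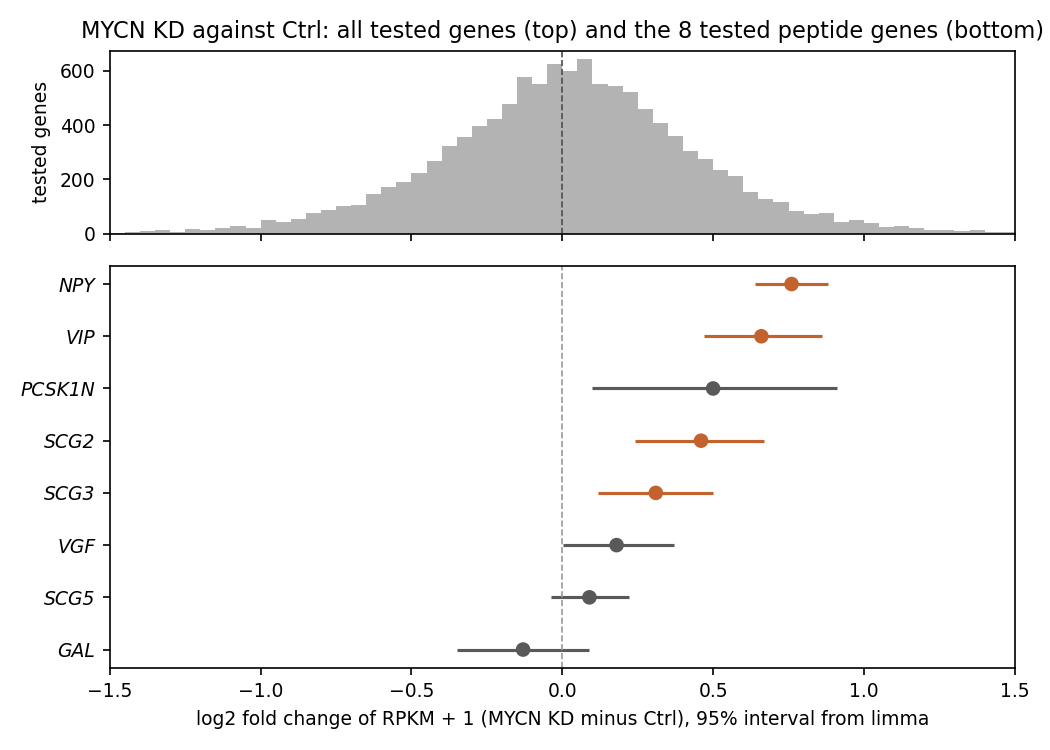
The upper panel is a histogram of the log2 fold change (MYCN KD minus Ctrl, on log2(RPKM + 1)) of the 11411 tested genes, less the 40 that lie beyond the axis from -1.5 to 1.5, and the lower panel gives the 8 tested peptide genes as points with 95% intervals from limma. Orange marks the 4 genes called higher (NPY, VIP, SCG2 and SCG3), and grey marks those that did not pass, of which GAL alone has a value below 0, at -0.13.

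Promoter sequence is shown for the precursors and VGF because VIP and VGF are textbook targets of cyclic AMP signalling. The full cyclic AMP response element is TGACGTCA, of which the VIP window held only the shorter core TGACG. A further reason is that MYCN binds the E-box CACGTG. RefSeq windows of 250 bases before to 50 bases after the transcript start (GRCh38.p14) were held for 8 of the 10 genes, all but GAL and SCG2. The 200 bases before the start are shown for the precursors and for VGF, with their GRCh37 positions found by exact match, in lower case with the matches to TGACGTCA, TGACG or CACGTG on either strand in capitals.
NPY (chr7:24323609-24323808, plus strand): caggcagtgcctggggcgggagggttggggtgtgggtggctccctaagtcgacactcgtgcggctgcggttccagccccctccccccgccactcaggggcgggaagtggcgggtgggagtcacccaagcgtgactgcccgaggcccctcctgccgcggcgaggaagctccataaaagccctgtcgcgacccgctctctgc
VIP (chr6:153071732-153071931, plus strand): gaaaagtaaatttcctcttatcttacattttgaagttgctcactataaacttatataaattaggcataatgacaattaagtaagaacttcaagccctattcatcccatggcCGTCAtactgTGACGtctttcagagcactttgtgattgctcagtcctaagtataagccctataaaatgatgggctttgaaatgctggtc
VGF (chr7:100808851-100809050, minus strand): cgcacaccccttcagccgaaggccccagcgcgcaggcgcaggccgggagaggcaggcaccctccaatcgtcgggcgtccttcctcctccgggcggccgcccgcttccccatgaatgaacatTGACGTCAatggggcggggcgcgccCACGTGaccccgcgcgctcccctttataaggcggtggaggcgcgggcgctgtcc
CARTPT (chr5:71014902-71015101, plus strand): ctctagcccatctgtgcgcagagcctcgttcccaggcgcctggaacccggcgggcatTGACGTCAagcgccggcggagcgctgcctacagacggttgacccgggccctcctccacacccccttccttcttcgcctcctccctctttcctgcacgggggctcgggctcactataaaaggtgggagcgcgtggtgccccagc
The full element TGACGTCA stood in VGF from -79 to -72 and in CARTPT from -143 to -136, counted from the start, and in 1.85% of all 35116 promoter windows. VIP held the shorter core TGACG at -79 to -75 and, on the opposite strand, at -89 to -85. This core, which the full element contains on both strands, was present in 7 of the 9 windows of the peptide genes (PCSK2 has 2 windows) and in 24.6% of all windows. The E-box CACGTG was found at -54 to -49 of VGF alone among these windows, and 7.26% of all windows held it. NPY and PCSK1N had none of the 3 motifs. A match describes the letters of these windows only.

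**Figure D2:**
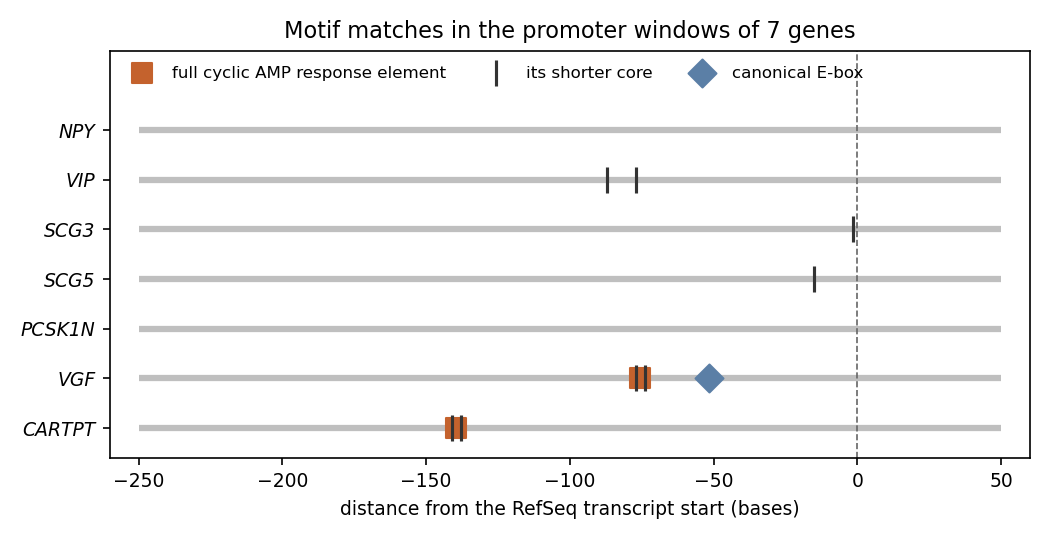
Motif matches in the promoter windows of 7 genes are drawn by distance in bases from the RefSeq transcript start (dashed line). Orange squares mark the full cyclic AMP response element (VGF and CARTPT), black ticks its shorter core on either strand (VIP, SCG3, SCG5, VGF and CARTPT), and the blue diamond the canonical E-box of VGF; the windows of NPY and PCSK1N are empty.

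Among the precursors, NPY had the highest level of the 10 genes in every sample. NPY, which encodes neuropeptide Y, a cotransmitter of noradrenaline, is encoded on the plus strand of chromosome 7 (24323807 to 24331481, GRCh37) and overlaps no other annotated gene. It was at 1159.6 and 1114 RPKM in Ctrl against 1889 and 1963 RPKM in MYCN KD. The MYCN KD samples were thus both far above the Ctrl samples, and the spread within a group was small beside the gap. The means were 1137 ± 32.1 RPKM (SD, n = 2) and 1926 ± 51.9 RPKM (SD, n = 2). The log2 fold change was 0.76 with a standard error of 0.0414 (limma, adjusted p = 0.00380). By RPKM, NPY ranked 39th and 38th of the 26364 listed genes in the Ctrl replicates and 9th and 11th in the MYCN KD replicates. Of all tested genes, 4.43% had a larger log2 fold change.

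VIP encodes vasoactive intestinal peptide, which raises cyclic AMP in its target cells. The gene lies on chromosome 6 from 153071932 to 153080900 (GRCh37), where LINC02840 overlaps it on the opposite strand. Its level was 71.1 and 76.9 RPKM in Ctrl against 122.2 and 113.2 RPKM in MYCN KD, with no overlap between the groups. It rose by 0.66 on the log2 scale (standard error 0.0663, adjusted p = 0.00752 from limma), and 6.46% of the tested genes had a larger log2 fold change.

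GAL encodes galanin, a peptide that is also made by many sympathetic and sensory neurons, and lies on chromosome 11 from 68451247 to 68458643. Its 77.7 and 70.9 RPKM in Ctrl against 64.7 and 70.7 RPKM in MYCN KD came close to each other, with Ctrl replicate 2 and MYCN KD replicate 2 nearly level. The difference was -0.13 on the log2 scale, with a 95% interval from -0.35 to 0.088 (adjusted p = 0.223 from limma). GAL and VIP therefore had like levels in Ctrl, with overlapping samples, whereas in MYCN KD both VIP samples were above both GAL samples. CARTPT, the precursor of the CART peptides (chromosome 5, 71015102 to 71016875), was close to the limit of detection. Its 0.160 and 0.171 RPKM in Ctrl against 0.226 and 0.212 RPKM in MYCN KD stood for 5, 5, 6 and 6 reads. Exact 95% Poisson intervals were 1.62 to 11.7 reads for 5 and reached 13.1 reads for 6, so that no difference was detectable at this depth. The counts were recovered after the normalization of the study and need not equal the reads sequenced. These intervals treat them as reads and cover counting error only.

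**Figure D3:**
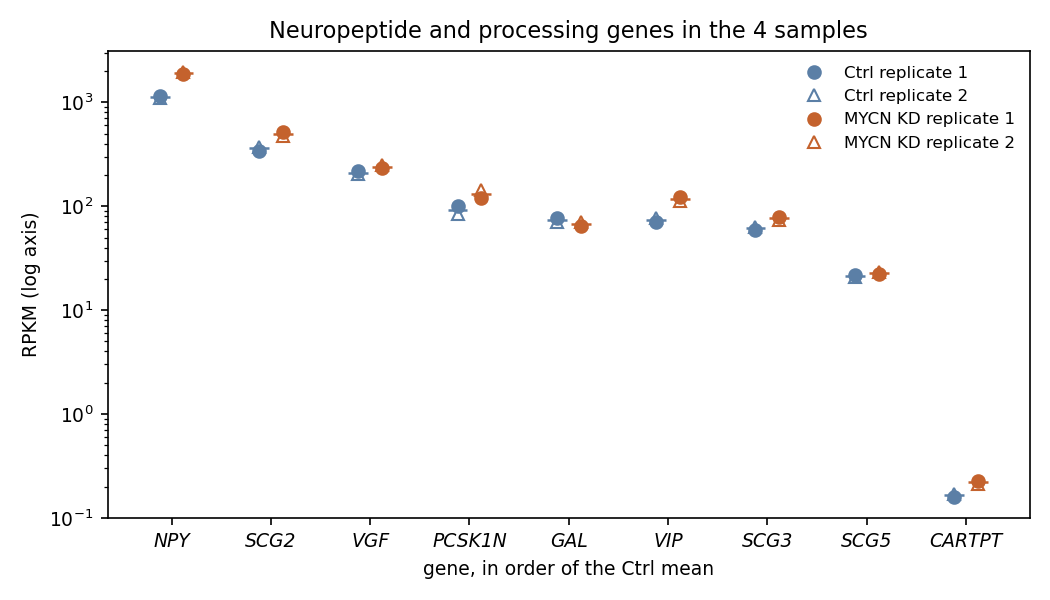
RPKM on a log axis is plotted for 9 of the genes in each of the 4 samples, in order of the Ctrl mean, with circles for replicate 1, triangles for replicate 2 and short lines for group means. PCSK2, at 0 in 3 of the 4 samples, is left out, and CARTPT lies far below the rest. In NPY, VIP, SCG2 and SCG3, the genes called higher, both MYCN KD values (orange) lie above both Ctrl values (blue). The same holds for PCSK1N, VGF, SCG5 and CARTPT, which were not called, while in GAL both lie below.

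Of the granins among the 10 genes, SCG2 was the highest. It encodes secretogranin II, the source of the peptide secretoneurin, and lies on chromosome 2 from 224461658 to 224467079 on the minus strand. SCG2 rose from 343.9 and 376.0 RPKM (Ctrl) to 515.0 and 472.5 RPKM (MYCN KD). Its log2 fold change was 0.46 with a standard error of 0.0733 (limma, adjusted p = 0.0180). Both MYCN KD samples exceeded both Ctrl samples by more than the spread within the groups. SCG3 encodes secretogranin III, which tethers chromogranin A to the vesicle membrane, and is on chromosome 15 from 51973689 to 52013223 with 2 long noncoding RNAs on the opposite strand. It was at 59.0 and 63.8 RPKM in Ctrl against 79.2 and 73.5 RPKM in MYCN KD, and its log2 fold change was 0.31 with a standard error of 0.0653 (limma, adjusted p = 0.0315). This call is the least stable of the 4. It was lost when Ctrl replicate 1 (0.25, adjusted p = 0.0684) or MYCN KD replicate 1 (0.26, adjusted p = 0.0797) was left out in limma.

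VGF, whose product is cut into several neuropeptides and which is induced by nerve growth factor, lies on chromosome 7 from 100805790 to 100808850 on the minus strand. Its level was 218.7 and 203.6 RPKM in Ctrl against 231.8 and 248.5 RPKM in MYCN KD. The groups did not overlap, but the gap between the nearest samples was no larger than the spread within a group. The log2 difference was 0.18, with a 95% interval from 0.0034 to 0.37, and did not pass the adjusted threshold (adjusted p = 0.0840 from limma). When all samples were scaled to an equal RPKM sum it passed, at 0.25 (adjusted p = 0.0249 from limma), and likewise with quantile normalization, at 0.31 (adjusted p = 0.00651 from limma).

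The proteins that act on the convertases were less clear. PCSK1N encodes proSAAS, an inhibitor of the convertase PC1/3, and lies on the X chromosome from 48689506 to 48694012 on the minus strand. On the log2 scale its difference had the largest standard error of the 8 tested genes (0.137), with 99.9 and 83.6 RPKM in Ctrl against 119.4 and 141.8 RPKM in MYCN KD. Both MYCN KD samples were above both Ctrl samples, and the log2 difference of 0.50 (95% interval 0.10 to 0.91) just missed the threshold (adjusted p = 0.0543 from limma). It passed under both other scalings (adjusted p = 0.0342 with an equal RPKM sum and 0.0202 with quantile normalization, from limma). SCG5 encodes 7B2, the chaperone that PC2 needs to become active, on chromosome 15 from 32933877 to 32989299. The level of SCG5 was 21.7 and 20.9 RPKM in Ctrl against 22.3 and 23.2 RPKM in MYCN KD, a log2 difference of 0.09 with a 95% interval from -0.038 to 0.22 (adjusted p = 0.172 from limma). With an equal RPKM sum it passed at 0.15 (adjusted p = 0.0397 from limma). SCG5 shares its locus with the readthrough gene ARHGAP11A-SCG5 and with SCG5-AS1 on the opposite strand, and the use of strand in counting is not given in the sources used here.

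PCSK2 encodes the convertase PC2 itself and lies on chromosome 20 from 17206752 to 17465223. It had 1 read in Ctrl replicate 1 (0.00580 RPKM) and 0 reads in the other samples. Taking 3 reads as the limit that a count of 0 allows, PCSK2 could be at up to 0.0186 to 0.0204 RPKM in those 3 samples (the exact two-sided 95% Poisson limit for 0 is 3.69 reads). These limits also treat normalized counts as reads. SCG5 and PCSK1N were thus measured in cells where PCSK2 had at most 1 read. PCSK1, which encodes PC1/3, was also near the floor, at 0.123 and 0.167 RPKM in Ctrl against 0.151 and 0.111 RPKM in MYCN KD. CPE, the carboxypeptidase that trims the cut peptides, had 0.314 and 0.399 RPKM in Ctrl against 0.411 and 0.333 RPKM in MYCN KD. PCSK1 and CPE were singled out after their values were seen.

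By mean RPKM in Ctrl the order was NPY, SCG2, VGF, PCSK1N, GAL, VIP, SCG3, SCG5, CARTPT and PCSK2. Only the neighbours GAL and VIP had overlapping samples in it. In MYCN KD the order was NPY, SCG2, VGF, PCSK1N, VIP, SCG3, GAL, SCG5, CARTPT and PCSK2, where PCSK1N and VIP overlapped. GAL thus overlapped VIP and lay above SCG3 in Ctrl, and lay below both in MYCN KD. The change of GAL itself did not pass the threshold. Together the 10 genes made up 0.472% of all RPKM in each Ctrl replicate and 0.746% and 0.744% in the MYCN KD replicates. NPY supplied most of this, with 56.5% and 55.4% of the summed RPKM of the 10 genes in Ctrl and 62.1% and 63.2% in MYCN KD.

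In each of the 8 tested genes the replicates differed in opposite directions in the groups: where Ctrl replicate 1 was above Ctrl replicate 2, MYCN KD replicate 1 was below MYCN KD replicate 2. The same held for 99.4% of all tested genes, after the removal of unwanted variation by the authors. An exact two-sided permutation test of 2 against 2 samples cannot go below p = 0.333, which each gene without overlap reaches. The study's methods speak of biological replicates, but the labels do not say whether these were separate cultures. The p-values measure the spread that the removal of unwanted variation left between these samples, not their spread as sequenced. This spread may also be technical.

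The wider pathway was described by gene lists, which overlap the 10 genes in part and were written with earlier results of these data known. Their counts stand beside the 25.3% of all tested genes called higher and the 22.8% called lower. The list of 8 granins and granin-like genes held 5 of the 10 genes, PCSK1N included, and of the 8, 5 were called higher and 0 lower (0 also at an unadjusted p under 0.05 in limma and with voom), with a median log2 fold change of 0.33. Besides SCG2 and SCG3, the ones that rose were CHGB, CHGA and GNAS, whose locus encodes the G protein subunit Gs alpha as well as a granin, so that its value is not that of the granin transcript alone. CHGB, which encodes chromogranin B, went from 362.5 and 368.4 RPKM to 574.8 and 565.7 RPKM (log2 fold change 0.64, adjusted p = 0.00359 from limma). CHGA, which encodes chromogranin A, the most abundant granin here, went from 1793 and 1627 RPKM to 2068 and 2273 RPKM (log2 fold change 0.34, adjusted p = 0.0380 from limma). With no filter on low values CHGA did not pass (adjusted p = 0.0695 from limma).

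Of 18 convertases and other processing enzymes 12 were tested, 4 were higher, 1 was lower, and the median was 0.09, with the share called higher not far from that of all tested genes. FURIN, the convertase of the trans-Golgi network, rose from 23.4 and 20.9 RPKM to 28.7 and 32.0 RPKM (log2 fold change 0.44, adjusted p = 0.0286 from limma). The lysosomal proteases CTSB and PRCP rose by 0.54 and 0.35 on the log2 scale (adjusted p = 0.0117 and 0.00720 from limma). QPCTL, a Golgi enzyme that forms the N-terminal pyroglutamate of some peptides, fell from 17.4 and 15.1 RPKM to 9.56 and 11.0 RPKM (log2 fold change -0.61, adjusted p = 0.0215 from limma), and SNRPD2 overlaps it on the opposite strand. PAM, the amidating enzyme that NPY and VIP need, was at 15.7 and 17.0 RPKM in Ctrl against 17.8 and 16.5 RPKM in MYCN KD. Its groups overlapped (adjusted p = 0.475 from limma), and it was named after its value was seen.

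All 58 other neuropeptide and hormone precursors on the list were in the files, but 8 were tested, and 16 were at 0 in every sample. Of the 8, 2 rose in limma, a share like the 25.3% of all tested genes, 0 fell, and the median was 0.02. At an unadjusted p under 0.05, 2 were lower, and with voom 0 were. CRH, which encodes corticotropin-releasing hormone, rose with a log2 fold change above those of the 10 genes, from 16.1 and 19.8 RPKM to 48.5 and 39.7 RPKM (log2 fold change 1.25, adjusted p = 0.0107 from limma). NPFF rose slightly, from 9.89 and 9.83 RPKM to 11.6 and 11.7 RPKM (log2 fold change 0.22, adjusted p = 0.0205 from limma), a call that was lost when any 1 of the 4 libraries was left out (adjusted p from 0.208 to 0.257 from limma). Its locus is shared with the readthrough gene ATF7-NPFF.

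The receptors of NPY, VIP and galanin were low, and 3 of 10 could be tested, of which 1 rose and 0 fell (0 also at an unadjusted p under 0.05 in limma and with voom), with a median of 0.48. GALR1, a galanin receptor, rose from 1.15 and 1.10 RPKM to 2.00 and 2.07 RPKM (log2 fold change 0.51, adjusted p = 0.00510 from limma). On the scale with a pseudocount of 1 this change is understated, since the RPKM ratio was 1.81. NPY2R, which binds NPY, was at 4.25 and 5.34 RPKM in Ctrl against 7.86 and 6.31 RPKM in MYCN KD (log2 difference 0.48, adjusted p = 0.0760 from limma). It passed with quantile normalization (0.42, adjusted p = 0.0475 from limma). With 1 sample left out the log2 difference of NPY2R ranged from 0.34 to 0.62. ADCYAP1R1, the PACAP receptor that VIP also binds weakly, overlapped between the groups at 8.50 to 9.43 RPKM (adjusted p = 0.906 from limma). The other NPY receptors NPY1R, NPY4R and NPY5R had at most 1 read in a sample, and NPY4R has a near-identical copy. GALR2 had 11 to 17 reads, GALR3 had 1 to 4, VIPR1 had 1 to 5, and VIPR2 had 5 in each sample.

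Of 8 enzymes that degrade or convert released peptides 5 were tested, with 1 higher, 2 lower and a median of -0.23. ECE1, an endothelin-converting enzyme, rose from 34.2 and 32.6 RPKM to 56.6 and 59.2 RPKM (log2 fold change 0.78, adjusted p = 0.00414 from limma). Its relative ECE2, which shares its locus with the readthrough gene EEF1AKMT4-ECE2, fell from a mean of 14.4 RPKM to 5.62 RPKM (log2 fold change -1.22, adjusted p = 0.00422 from limma). THOP1, a peptidase of short peptides, fell by 0.64 on the log2 scale (adjusted p = 0.0129 from limma). NLN and ACE did not pass, at -0.23 and 0.22 on the log2 scale (adjusted p = 0.116 and 0.137 from limma). With quantile normalization both passed, at -0.27 and 0.28 (adjusted p = 0.0361 and 0.0425 from limma). With 1 sample left out the log2 difference of ACE ranged from 0.14 to 0.31.

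Of 22 genes for dense-core vesicle assembly, transport and release, 21 were found and 19 tested. Of these 11 were higher and 2 lower, where 25.3% and 22.8% of all tested genes were, and the median was 0.42. CYB561, the vesicle cytochrome that supplies electrons for amidation and for noradrenaline synthesis, went from 372.4 and 373.9 RPKM to 758.2 and 754.6 RPKM, a ratio of 2.03 (log2 fold change 1.02, adjusted p = 0.00359 from limma). RAB3D and SYT5, which act in vesicle docking and release, rose by 0.92 and 0.89 on the log2 scale (adjusted p = 0.00359 for each from limma). Against these, RAB3A, the main neuronal Rab of regulated secretion, fell by 0.48 (adjusted p = 0.0191) and SYT4 fell by 0.40 (adjusted p = 0.0343), both from limma on the log2 scale. RAB3D overlaps other annotated genes, among them TMEM205 on the same strand. SYT5 and RAB3A overlap DNAAF3-AS1 and MPV17L2 on the opposite strand. SYT4 kept its direction but did not pass with an equal RPKM sum (-0.35, adjusted p = 0.0635), with no filter on low values (-0.40, adjusted p = 0.0582), without Ctrl replicate 2 (-0.32, adjusted p = 0.0644) or without MYCN KD replicate 2 (-0.33, adjusted p = 0.0656).

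Among 19 transcription factors of neuroendocrine peptide genes, 15 were tested, 3 were higher and 2 lower, and the median was 0.12. PHOX2A, which specifies noradrenergic neurons, rose from 266.4 and 245.9 RPKM to 484.1 and 522.7 RPKM (log2 fold change 0.97, adjusted p = 0.00460 from limma). HAND2, of the same lineage, rose by 0.56 on the log2 scale (adjusted p = 0.00588 from limma). PHOX2A overlaps INPPL1 and HAND2 overlaps HAND2-AS1, each on the opposite strand. REST, the repressor of neuronal and granin genes outside the nervous system, had at most 0.143 RPKM in any sample. CREB1, which binds the cyclic AMP response element, was at 4.54 to 5.60 RPKM with overlapping groups (adjusted p = 0.949 from limma). REST and CREB1 were named after their values were seen.

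**Figure D4:**
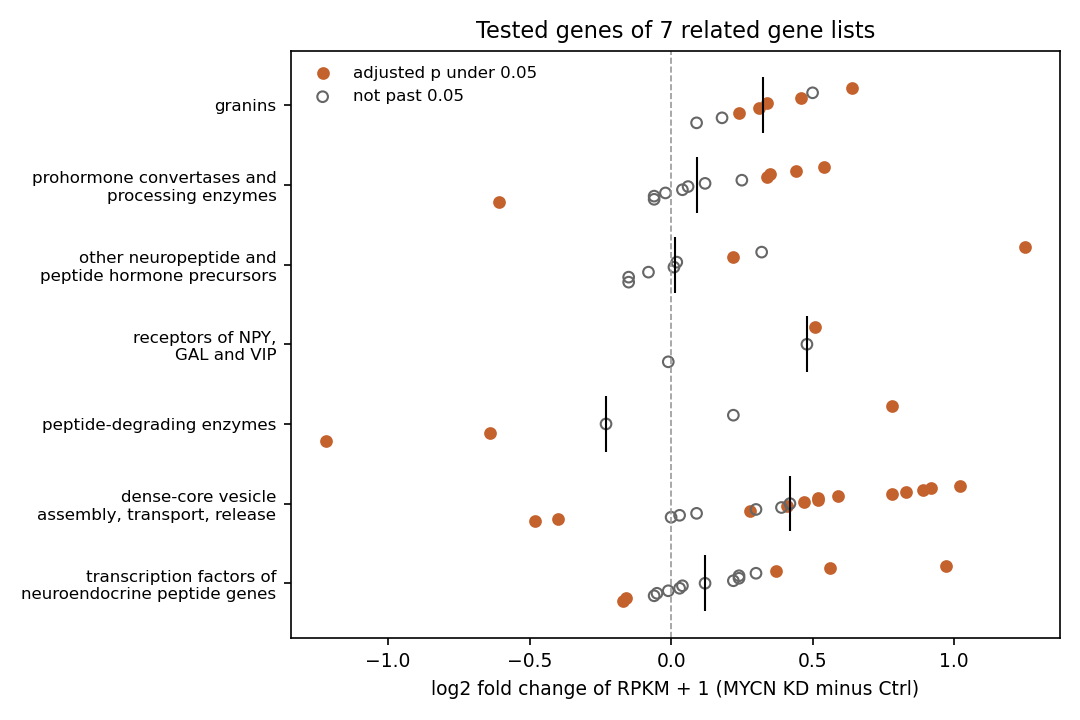
Each point is the log2 fold change (MYCN KD minus Ctrl, on log2(RPKM + 1)) of a tested gene of 7 lists, filled where the adjusted p from limma was under 0.05, with a vertical line at each list's median. The vesicle list has 11 filled points above 0 and 2 below. CRH, at 1.25, stands far above the other precursors, and QPCTL, at -0.61, is the lowest of the processing enzymes.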

How the data were processed

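RNA-seq of 2 Ctrl and 2 MYCN KD samples was analysed, grouped by the sample labels. Per the study's methods, the authors used HISAT2 (2.1.0 in the submitters' processing notes) for alignment to hg19 and featureCounts for counting on RefSeq genes, fitted a DESeq2 model, removed unwanted variation with RUVSeq (variant and number of factors not given in the sources used here) and deposited RPKM values. Such a step can remove differences that follow the factors it estimates, and its effect on the replicate spread was not tested.

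The members and lists were chosen with earlier results of these data known. Whole counts were recovered from the RPKM steps for 19908 of 19908 genes above 0 (within 0.01 reads). They are counts after the normalization by the authors and are called reads here. The test was limma 3.58.1 (R 4.3.3, eBayes with a trend, no block) on log2(RPKM + 1), with Benjamini-Hochberg adjustment over 11411 genes whose RPKM averaged 1 or more. The fit was tested on simulated data drawn independently for each sample, so that test does not cover the opposite replicate differences seen here. Python 3.11.15, pandas 2.3.3, numpy 2.4.6, scipy 1.17.1 and matplotlib 3.10.9 were used. Named besides the 10 genes and MYCN were, per list, all tested genes where 6 or fewer were tested, otherwise the 3 largest rises and 3 largest falls past the threshold without overlap, and all receptors, to at most 30 genes in list order. GNAS, PCSK1, CPE, PAM, REST, CREB1, CD68 and PTPRC fall outside this rule and were named after their values were seen. Positions came from GENCODE 44 on GRCh37 and promoters from RefSeq (GRCh38.p14). Protein sequences were not used here. Alternatives were another pseudocount, filter, scaling, moderation and test, the replicate block, and each sample left out. The result of 1 sympathetic marker is not reported here.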

Additional observations from a re-analysis of the deposited data

How the results depend on the processing

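Of 180 values of the main results under 12 alternatives, 161 kept their direction and side of the threshold (counts: stayed within 1.5 times) and 0 reversed. NPY, VIP, SCG2 and MYCN passed the threshold under all 12. With a mean RPKM of at least 5, 1868 genes were higher against 2890, since fewer genes were tested. With samples scaled to an equal RPKM sum, 7 peptide genes were higher against 4 (SCG5 0.15, PCSK1N 0.57, VGF 0.25). In the lists, 4 genes were lower against 7. Of the 11414 genes tested with this scaling, 3282 were called higher against 2890, and 2120 lower against 2599. Their median log2 fold change was 0.078 against 0.026, so this scaling moved all genes upward in MYCN KD. Quantile normalization gave PCSK1N 0.57 and VGF 0.31 and 6 peptide genes higher, with 2901 of all tested genes higher and 2993 lower. With the replicate block, 2077 genes were higher and 1851 lower, SCG3 (0.31) no longer passed, PCSK1N (0.50) passed, and 4 list genes were lower. Fits with the block or a sample left out have 1 residual degree of freedom, and a lone sample is assumed to vary like the other group. In such fits an adjusted p can fall although the standard error rises. This was so for NPY without Ctrl replicate 1, where the standard error went from 0.0414 to 0.113. A pass in such a fit is therefore not added support for a change. Leaving out each sample gave SCG3 0.25 to 0.36 and PCSK1N 0.38 to 0.63. Of the other named genes, ADCYAP1R1 reversed, to 0.043 with the equal sum, 0.05 without Ctrl replicate 1 and 0.049 without MYCN KD replicate 1, against -0.074 without Ctrl replicate 2, and passed in none of the 12. Among the 274 values of the other named genes, 11 lost and 9 gained a call: CHGA lost it with no filter, NPFF with the block (adjusted p = 0.330) and each sample left out, and SYT4 with the block (adjusted p = 0.0576) and 4 others, while NPY2R gained it with the block (adjusted p = 0.0210) and 4 others, ACE with 3 and NLN with 1. For these results the cause was not tested.

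Same-numbered samples did not deviate together in these normalized values (correlation of their deviations -0.985), so the numbers were not used as pairs. Whether the cultures were paired cannot be read from values with unwanted variation removed. A crossed replicate block, added after seeing the data, called 5910 genes higher and 5262 lower, 7 peptide genes higher and 1 lower, and 45 and 18 list genes, with GAL -0.13, SCG5 0.091, PCSK1N 0.50 and VGF 0.18 past the threshold, because it takes the median residual SD from 0.0765 to 0.00197.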
